A study of Mus musculus with 12 samples.

Results

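The transcription factor p53 (Trp53) and 9 of its direct targets were followed through 12 libraries of B16F10 cells, a mouse melanoma line. The 10 genes, Trp53, Cdkn1a, Mdm2, Ccng1, Bbc3, Phlda3, Zmat3, Sesn1, Aen and Bax, were taken by name from the 55487 genes of each count table. All 10 were found, and all 10 passed the filter on low counts in total RNA, in ribosome-protected fragments (RPF) and in the ratio of RPF to total RNA (translational efficiency). None of the 10 passed the test for a difference between control and OSGEP-depleted cells in any of these measures, and 0% of all genes tested did. Mdm2 was the only one whose 3 depleted libraries all lay above the 3 control libraries, and only in total RNA. There, 7.08% of all genes tested had groups that did not overlap, in either direction.

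p53 is kept at a low level by Mdm2, a ubiquitin ligase that marks it for degradation and is itself a p53 target, so that p53 limits its own activity. DNA damage, ribosome stress and other insults stabilise the p53 protein, mostly without a change in its RNA. Its activity is therefore usually read from its targets, which stop the cell cycle (Cdkn1a, which encodes p21), restrain growth signalling (Sesn1, Phlda3) or favour apoptosis (Bbc3, which encodes PUMA, and Bax).

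B16F10 cells carried a control hairpin (shCtr, genotype WT in the labels) or hairpin #2 against Osgep (shOSGEP, genotype KD OSGEP), the gene of the catalytic KEOPS subunit. KEOPS makes the t6A modification next to the anticodon of tRNAs for codons whose first base is A (ANN codons). Each hairpin had 3 replicates, each with an RPF and a total RNA library, and the latter is labelled as polyA RNA. Per the study's methods, hairpins were delivered by lentivirus to the cells, which were then selected with puromycin, in independent transductions. Cells of both groups were grown to confluence and given cycloheximide briefly before lysis, and active ribosomes were captured with a puromycin analogue. A single hairpin against Osgep was sequenced, and no p53-activating agent is named for any group.

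Values are CPM (counts per M, or mega, of a library) scaled with TMM factors, and triplets are given in the order of replicates 1, 2 and 3. Total RNA libraries held 46.7 to 81.1 M counts and RPF libraries 12.9 to 40.3 M. Osgep measured 13.9, 15.7 and 15.3 CPM in shCtr total RNA and 0.589, 6.92 and 6.77 CPM in shOSGEP total RNA. These groups did not overlap, with a fitted log2 change of -1.65 (SE 0.77, edgeR adjusted p = 0.975). Osgep footprints measured 7.72, 7.27 and 4.71 CPM in shCtr RPF and 4.87, 3.81 and 2.36 CPM in shOSGEP RPF, and those groups overlapped. Within shOSGEP, replicate 1 thus had the lowest Osgep RNA but the highest Osgep footprints. The shOSGEP replicate 1 sample stood apart, with the least Osgep RNA and with 67.7% ribosomal RNA among its RPF counts, where the other 5 samples had 27.7% to 44.8%. The 7 melanocyte markers summed to 2655 CPM in its total RNA against 9665 to 16840 CPM in the other 5 libraries, and none was at 0. The 7 markers of other cells summed to 15.6 CPM there against 0.721 to 2.84 CPM elsewhere, nearly all of it Col1a1, with the T cell gene Cd3e at 0 in all 6 total RNA libraries. The part of these differences in the results below was not tested. In such bulk libraries, fewer cells of a type and less RNA per cell cannot be told apart.

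Promoter windows of RefSeq (GRCm38.p6, from 250 bases before to 50 after each annotated start) were searched for the p53 response element to show where p53 could bind near these starts. The element was searched as 2 decamers separated by 0 to 3 bases, each with an intact core of C, A or T, A or T, and G, and with at most 2 mismatches in the other 12 positions. The pattern equals its reverse complement, so a single search covers both strands. Of the 10 genes, 9 had a window (14 windows in all), and Zmat3 had none. In all, 3 of them, Cdkn1a, Bax and Sesn1, held an element, which was found in 0.714% of the 27025 genes with windows and in 0.603% of the 32851 windows. The elements of these 3 are printed 5′ to 3′ on the gene's strand, with the decamers in capitals.
Cdkn1a: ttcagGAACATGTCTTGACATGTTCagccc
Bax: tcccAGGCAAGCTTtGAACTTGCGGcaatt
Sesn1: tggGCGCTTGGCCttcAAGCTTGTTTttgc
The Cdkn1a stretch lies at chr17:29090923-29090952 on the plus strand, and its element starts 51 bases before the upstream of its 2 annotated starts, with no bases between the decamers and 1 mismatch. The Bax stretch lies at chr7:45467074-45467103 on the minus strand, and its element starts 201 bases before the start, with 1 base between the decamers and 2 mismatches. The Sesn1 stretch lies at chr10:41887250-41887279 on the plus strand, and its element starts 186 bases before the downstream of its 2 annotated starts, with 3 bases between the decamers and 2 mismatches. A decamer without mismatch, alone or within such an element, was found in 8 of the 14 windows, from 7 of the genes, against 8.36% of all windows. A match describes these letters only, and elements outside the windows were not searched.

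The first question was whether RNA or footprints of p53 itself differed. Trp53 (ENSMUSG00000059552, chromosome 11, 69580359 to 69591873, plus strand, GRCm38) measured 174, 166 and 181 CPM in shCtr total RNA and 134, 181 and 169 CPM in shOSGEP total RNA. Apart from the low shOSGEP replicate 1, the libraries lay within the same range. Its fitted log2 change in RNA was -0.11 (SE 0.15, edgeR adjusted p = 0.975). Its footprints varied far more between replicates, with 38.2, 34.7 and 17.9 CPM in shCtr RPF and 44.3, 24.1 and 14.4 CPM in shOSGEP RPF. Replicate 3 was lowest and replicate 1 highest in both groups, and the groups overlapped. For RPF the fitted log2 change was -0.13 (SE 0.48, edgeR adjusted p = 0.9998). The changes in translational efficiency by pair were 0.59, -0.64 and -0.21 on the log2 scale, thus in both directions. The pseudogene Trp53-ps, whose reads could be confused with those of Trp53, had 4 to 14 counts in the total RNA libraries.

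Mdm2 and Ccng1 form the feedback arm. Mdm2 (ENSMUSG00000020184, chromosome 10, 117688875 to 117710758, minus strand) measured 131, 114 and 128 CPM in shCtr total RNA and 198, 133 and 142 CPM in shOSGEP total RNA. The lowest shOSGEP library lay just above the highest shCtr library, and replicate 1 had the widest gap. The changes by pair were 0.60, 0.22 and 0.16 on the log2 scale, and the fitted log2 change of 0.35 (SE 0.19, unadjusted p = 0.106, edgeR adjusted p = 0.975) did not pass the threshold. Groups that did not overlap were found in 1 of the 10 genes, against 7.08% of all 14516 genes tested in total RNA, and in 0 of the 10 in RPF and in translational efficiency, against 5.07% and 4.34%. Without replicate 1 the fitted log2 change of Mdm2 was 0.18 (SE 0.12), and without the shOSGEP replicate 1 library alone it was 0.14. Mdm2 footprints measured 50.4, 40.6 and 55.4 CPM in shCtr RPF and 66.7, 50.5 and 64.7 CPM in shOSGEP RPF. They were higher in 3 of 3 pairs, but the groups overlapped, since shOSGEP replicate 2 lay below shCtr replicate 3. In RPF a fitted log2 change of 0.31 (SE 0.26, edgeR adjusted p = 0.9998) was close in size to that in RNA, and the one in translational efficiency was -0.042 (SE 0.31).

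Ccng1 (ENSMUSG00000020326, chromosome 11, 40748552 to 40755311, minus strand) encodes cyclin G1, a p53 target that acts with a phosphatase on Mdm2. It measured 487, 323 and 294 CPM in shCtr total RNA and 522, 317 and 336 CPM in shOSGEP total RNA. Replicate 1 was the highest in both groups, and the replicate number accounted for 96.1% of the variance of log2 CPM over the 6 libraries against 1.9% for the hairpin. In RPF it measured 121, 73.7 and 86.3 CPM in shCtr and 92.9, 79.7 and 68.1 CPM in shOSGEP. RNA was thus higher in 2 of 3 pairs and footprints lower in 2 of 3, and both sets of groups overlapped. The fitted log2 changes were 0.09 in total RNA (SE 0.28), -0.22 in RPF (SE 0.30) and -0.32 in translational efficiency (SE 0.42), and all had an edgeR adjusted p of at least 0.975.

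Among the arrest genes, Cdkn1a (ENSMUSG00000023067, chromosome 17, 29090976 to 29100727, plus strand), whose promoter element is the best match of the 3 printed, measured 443, 268 and 347 CPM in shCtr total RNA and 571, 317 and 376 CPM in shOSGEP total RNA. It was higher in 3 of 3 pairs, by 0.36, 0.24 and 0.11 on the log2 scale, but the controls themselves ranged over 0.72 and the groups overlapped. The fitted log2 change was 0.25 (SE 0.28, edgeR adjusted p = 0.975), while it was 0.16 (SE 0.17) without replicate 1 and -0.037 without the shOSGEP replicate 1 library alone. These SEs ignore the pairing by replicate number, which accounted for 86.1% of the variance of its log2 CPM in total RNA. The fit with the replicate number as a block is given in the last section. Cdkn1a footprints measured 172, 58.1 and 128 CPM in shCtr RPF and 155, 75.6 and 99 CPM in shOSGEP RPF. Replicate 2 was lowest in both groups, and the pairs differed in direction, with log2 changes of -0.15, 0.38 and -0.37. Footprints of Cdkn1a had a fitted log2 change of -0.12 (SE 0.47, edgeR adjusted p = 0.9998). The ratio of footprints per kb of coding sequence to RNA per kb of exon was 2.89, 1.61 and 2.74 in shCtr and 2.03, 1.78 and 1.96 in shOSGEP. The ratios overlapped, and the fitted log2 change in translational efficiency, the lowest of the 10 genes, was -0.38 (SE 0.58, edgeR adjusted p = 0.99999).

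Zmat3 (ENSMUSG00000027663, chromosome 3, 32334792 to 32366014, minus strand), an RNA-binding zinc finger protein, measured 343, 256 and 258 CPM in shCtr total RNA and 171, 296 and 245 CPM in shOSGEP total RNA. A single library, shOSGEP replicate 1, was low, and the other 5 lay between 245 and 343 CPM. The same library was low in footprints, which measured 124, 88.5 and 104 CPM in shCtr RPF and 44.3, 125 and 79.2 CPM in shOSGEP RPF. The log2 changes by pair were -1.01, 0.21 and -0.07 for RNA and -1.48, 0.50 and -0.39 for RPF. Fitted log2 changes of -0.27 (total RNA, SE 0.24) and -0.34 (RPF, SE 0.41) were the lowest of the 10 genes in both assays, with edgeR adjusted p-values of 0.975 and 0.9998. Without replicate 1 they were 0.06 and 0.08, so the direction of the Zmat3 change rested on that replicate.

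Phlda3 (ENSMUSG00000041801, chromosome 1, 135766119 to 135769136, plus strand), which competes with the kinase Akt for membrane lipids, measured 102, 77.7 and 74.4 CPM in shCtr total RNA and 103, 82.9 and 80.7 CPM in shOSGEP total RNA. In RPF it measured 26.3, 14.9 and 25.6 CPM in shCtr and 27.8, 16 and 28.9 CPM in shOSGEP. It was higher in 3 of 3 pairs in both assays and in their ratio, by 0.01 to 0.12 in total RNA and 0.08 to 0.18 in RPF on the log2 scale. These differences were small beside those between replicate numbers, which accounted for 94.4% of its variance in total RNA and 97.3% in RPF. Its fitted log2 changes of 0.07 (total RNA, SE 0.18) and 0.12 (RPF, SE 0.35) had edgeR adjusted p-values of 0.980 and 0.9998.

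Sesn1 (ENSMUSG00000038332, chromosome 10, 41809935 to 41908424, plus strand), a stress protein that restrains mTORC1, measured 12.1, 9.96 and 12.5 CPM in shCtr total RNA and 13.1, 11.4 and 11.0 CPM in shOSGEP total RNA. In RPF it measured 4.34, 4.06 and 3.89 CPM in shCtr and 4.87, 4.33 and 2.98 CPM in shOSGEP, on 59 to 194 counts. Both groups overlapped in both assays, with replicates 1 and 2 higher and replicate 3 lower in shOSGEP. Its fitted log2 changes were 0.04 in total RNA (SE 0.19) and -0.015 in RPF (SE 0.33), and edgeR adjusted p-values were 0.991 and 0.9998.

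Among the apoptosis genes, Bbc3 (ENSMUSG00000002083, chromosome 7, 16308393 to 16318205, plus strand) had the fitted change farthest from 0 and also the widest spread. It measured 12.4, 4.81 and 9.32 CPM in shCtr total RNA and 26.3, 10.2 and 8.89 CPM in shOSGEP total RNA. Replicates 1 and 2 were higher in shOSGEP and replicate 3 was not, so that the groups overlapped. The fitted log2 change of 0.78 (SE 0.52, unadjusted p = 0.179, edgeR adjusted p = 0.975) was 0.43 without replicate 1 and 0.10 without the shOSGEP replicate 1 library. Bbc3 footprints measured 5.58, 2.06 and 6.91 CPM in shCtr RPF and 9.25, 3.5 and 10.3 CPM in shOSGEP RPF, on 34 to 396 counts per library. They were higher in 3 of 3 pairs by 0.72, 0.74 and 0.57 on the log2 scale, while the shCtr libraries alone spanned 1.71. Their fitted log2 change was 0.65 (SE 0.57, edgeR adjusted p = 0.9998).

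Bax (ENSMUSG00000003873, chromosome 7, 45461697 to 45466898, minus strand), which permeabilises the mitochondrial outer membrane, measured 132, 116 and 110 CPM in shCtr total RNA and 114, 137 and 106 CPM in shOSGEP total RNA. In RPF it measured 42.7, 29.9 and 53 CPM in shCtr and 41.2, 35.9 and 58.1 CPM in shOSGEP. The groups overlapped almost wholly, and the fitted log2 changes were -0.0023 (total RNA, SE 0.15) and 0.11 (RPF, SE 0.32), with edgeR adjusted p-values of 0.999 and 0.9998. Aen (ENSMUSG00000030609, chromosome 7, 78895854 to 78911209, plus strand), an apoptosis-enhancing nuclease, measured 101, 91.7 and 81.1 CPM in shCtr total RNA and 78.5, 94.7 and 92.5 CPM in shOSGEP total RNA. Its footprints measured 44.2, 33.8 and 49.1 CPM in shCtr RPF and 29.5, 43.1 and 61.2 CPM in shOSGEP RPF. Aen was lower in shOSGEP in replicate 1 and higher in replicates 2 and 3 in both assays. Aen had fitted log2 changes of -0.042 (total RNA, SE 0.15) and 0.07 (RPF, SE 0.33), with edgeR adjusted p-values of 0.986 and 0.9998. The annotated exons of Cdkn1a and Bax share 273 and 192 bases with other genes (AC167363.2 on the opposite strand and Gm45808 on the same strand), which had at most 12 counts in any library.

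**Figure D1:**
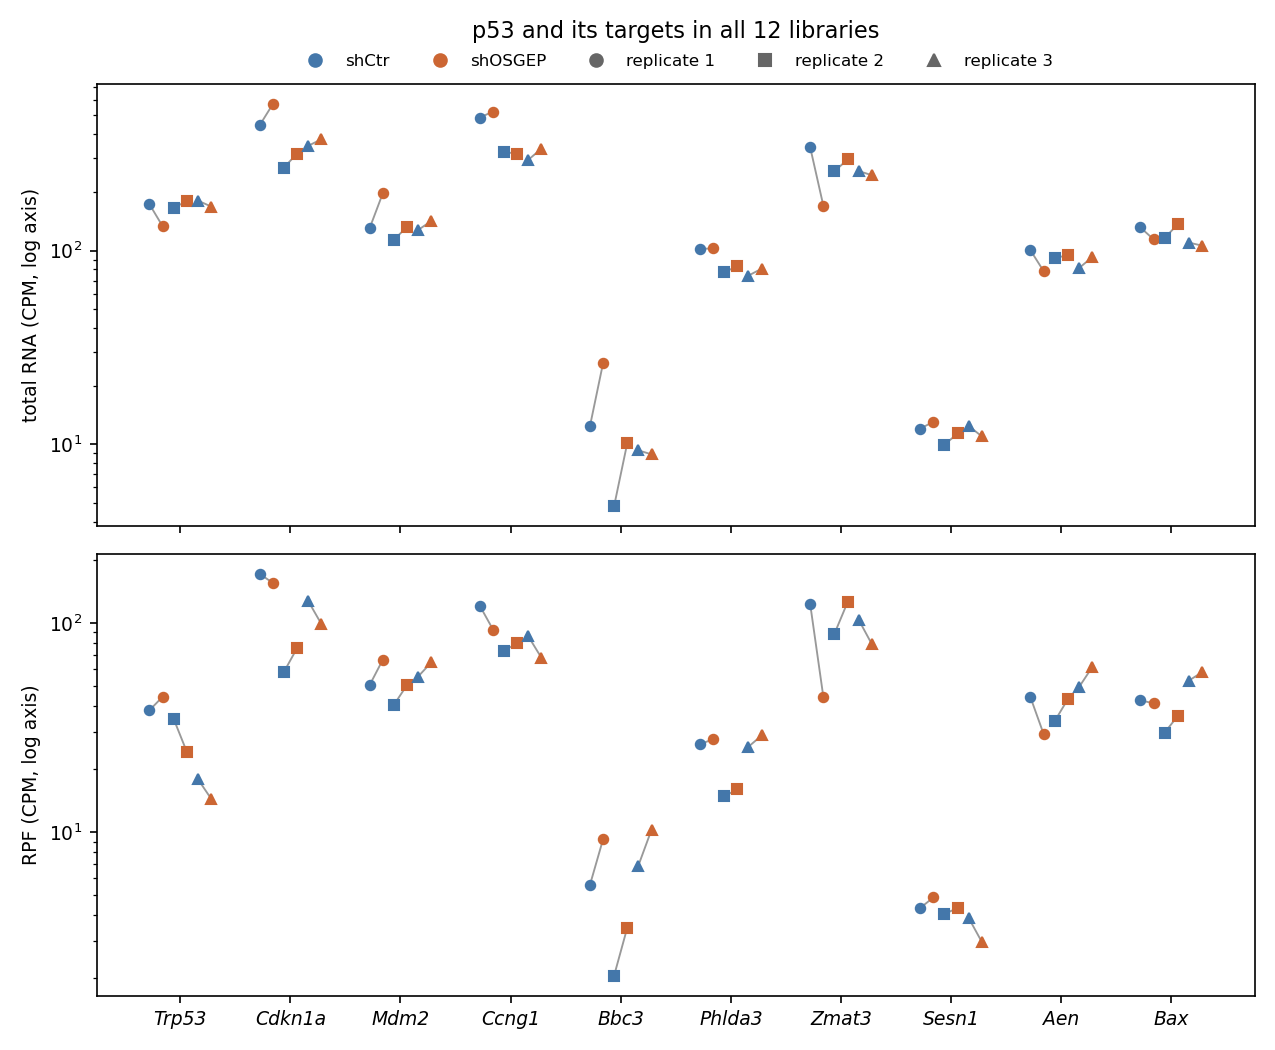
CPM of the 10 genes in the 6 total RNA (top) and 6 RPF (bottom) libraries on log axes, with shCtr in blue, shOSGEP in orange, symbols for replicate numbers and a line joining the libraries of each replicate. Mdm2 total RNA is the only case where the 3 orange points all lie above the 3 blue ones, and the line of Zmat3 drops steeply in replicate 1 in both assays.

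Read together, 6 of the 10 genes had a fitted change above 0 in total RNA and 5 had one in RPF, against 53.1% and 54.9% of all genes tested. The median log2 change of the 10 was 0.05 in total RNA (0.02 over all genes), 0.03 in RPF (0.05 over all genes) and -0.05 in translational efficiency (-0.0024 over all genes). By pair, the medians were 0.06, 0.20 and 0.03 for total RNA and 0.02, 0.29 and -0.09 in RPF. The highest medians were in replicate 2 in both assays, where over all genes the median was 0.01 in total RNA and -0.0048 in RPF. Without replicate 1, 8 of the 10 were above 0 in total RNA (49.2% of all genes) and 6 in RPF (49.2% of all genes), with medians of 0.10 and 0.11.

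At an edgeR adjusted p of 0.05, 0 of the 10 genes and 0% of all genes passed in total RNA, RPF and translational efficiency. At an unadjusted p of 0.05, 0 of the 10 passed in each, against 1.78%, 1.03% and 0.135% of all genes (259, 139 and 17 genes), and DESeq2 called 8 genes in total RNA, 1 in RPF and 0 in translational efficiency, none of them among the 10. The genes higher in 3 of 3 pairs were Cdkn1a, Mdm2 and Phlda3 in total RNA, against 17.7% of all genes, and Mdm2, Bbc3 and Phlda3 in RPF, against 15.7%. Phlda3 and Bax were so in translational efficiency, against 11.6%. None of the 10 was lower in 3 of 3 pairs in total RNA, RPF or translational efficiency, against 16.2%, 15.3% and 11.2% of all genes. Leaving out a library or a replicate number, in 9 ways, turned the sign of the fitted total RNA change in 8 of the 10 genes, with Mdm2 and Bbc3 as the exceptions. In RPF it turned the sign in 7, with Mdm2, Ccng1 and Bbc3 as the exceptions. Where a single library was left out, the other library of its number stayed in a fit that ignores the pairing. A turned sign can then follow the replicate number and not the hairpin. Cdkn1a and Phlda3, higher in 3 of 3 pairs in total RNA, were among the 8. The share of turned signs over all genes was not computed.

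**Figure D2:**
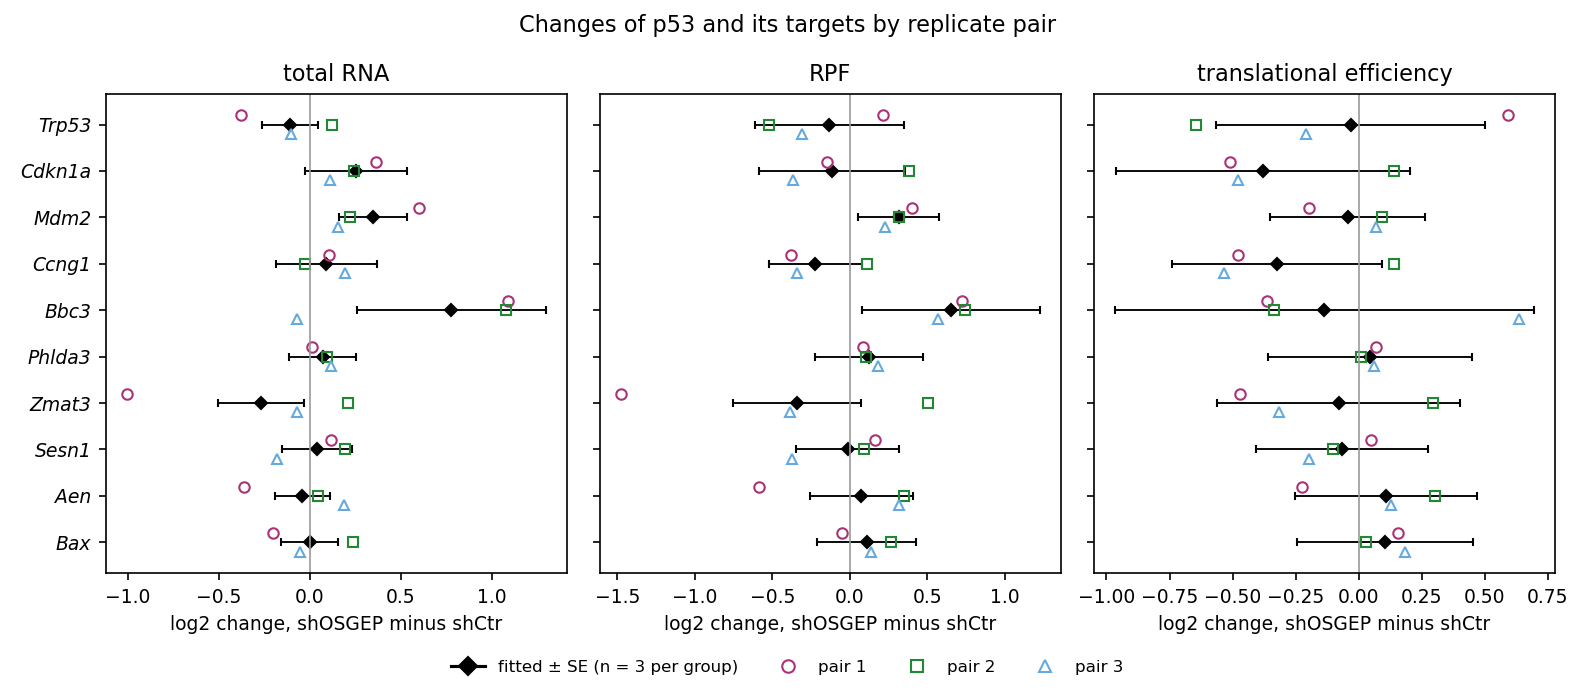
Log2 change from shCtr to shOSGEP of each gene in total RNA, RPF and translational efficiency, with the fitted change and its SE (black, n = 3 per group) and the 3 replicate pairs as open symbols. Pairs lie on both sides of 0 for most genes, and Mdm2 and Bbc3 are the genes whose fitted changes lie above 0 by more than 1 SE in both total RNA and RPF.

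The spread between replicate numbers was wider than that between hairpins for most of the 10, as for most genes tested. Replicate number has more levels than hairpin, which by itself favours a larger share of the variance, so the counts below carry no test. The replicate number took a larger share of the variance of log2 CPM than the hairpin in 8 of the 10 genes in total RNA (83.5% of all genes) and in 9 in RPF (86.8% of all genes). Mdm2 and Zmat3 were the exceptions in total RNA, with shares of 42.6% and 22.3% for the hairpin against 41.9% and 6.48% for the replicate number, and Zmat3 was the exception in RPF. The median share of the hairpin over the 10 genes was 7.94% in total RNA and 3.18% in RPF, against 12.3% and 8.45% over all genes. Averaged over both hairpins, Cdkn1a, Mdm2, Ccng1, Bbc3, Phlda3 and Sesn1 were highest in replicate 1 in total RNA, Zmat3, Aen and Bax in replicate 2 and Trp53 in replicate 3.

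Levels between genes were compared per length of annotated exon for total RNA and of coding sequence for RPF. In shCtr total RNA, Ccng1 (105 ± 29.5 CPM per kb, SD, n = 3) and Cdkn1a (99.3 ± 24.6) were highest and overlapped, and Cdkn1a also overlapped Bax (75.8 ± 7.07). Phlda3 (54.3 ± 9.66) and Trp53 (43.0 ± 1.89) followed, and neither overlapped its neighbours in this order. Zmat3 (25.0 ± 4.34) and Mdm2 (24.4 ± 1.77) overlapped, Aen (15.7 ± 1.69) stood below them, and Bbc3 (4.16 ± 1.79) and Sesn1 (2.89 ± 0.34) were lowest and overlapped. The targets thus spanned from the 30.5 percentile of protein-coding genes for Sesn1 to the 97.0 percentile for Ccng1. In shCtr RPF, Cdkn1a was highest at 250 ± 120 CPM per kb of coding sequence, followed by Zmat3 (121 ± 20.2) and Ccng1 (106 ± 27.6), and each overlapped the next. Sesn1 was again the lowest, at 2.48 ± 0.14 CPM per kb of coding sequence, and did not overlap Bbc3 (8.38 ± 4.33).

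**Figure D3:**
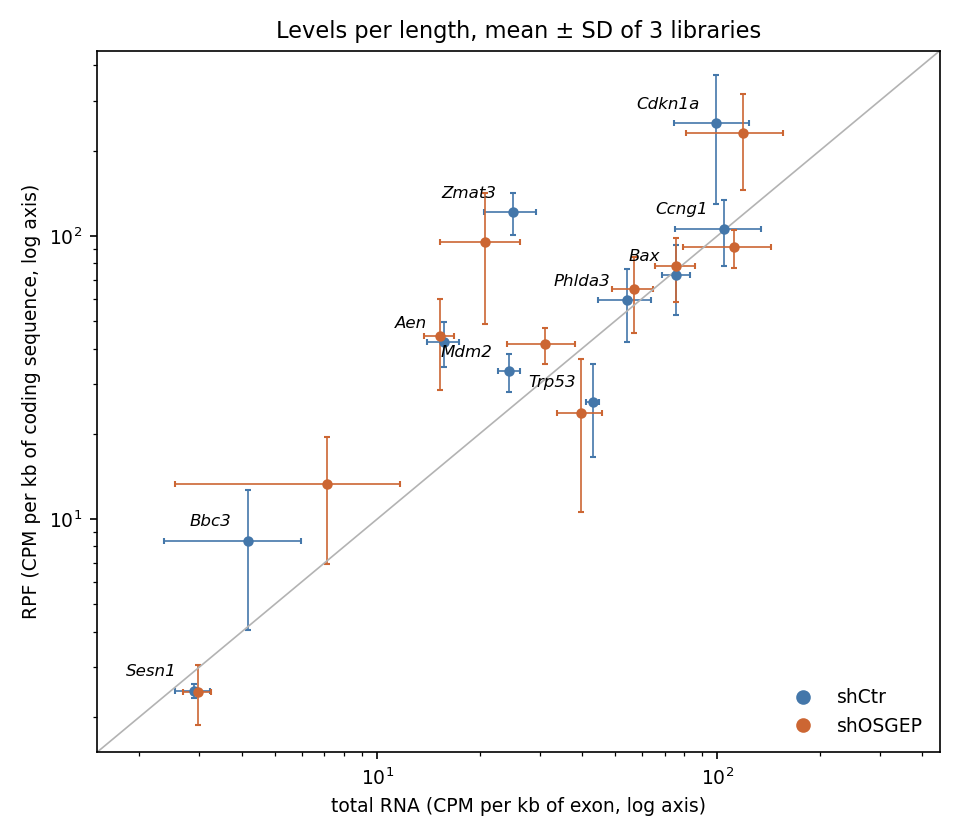
RPF level per kb of coding sequence against total RNA level per kb of exon for the 10 genes on log axes, as mean ± SD of 3 libraries in shCtr (blue) and shOSGEP (orange), with the diagonal where both are equal. Zmat3 lies farthest above the diagonal, with Aen, Cdkn1a and Bbc3 next, and Trp53 lies farthest below it. The 2 groups of each gene overlap within their bars.

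The ratio of footprints to RNA per length spread widely among the 10 genes, with Zmat3 and Aen at the top and Trp53 at the bottom in both groups. Zmat3 had the highest ratio, 4.73, 4.53 and 5.28 in shCtr and 3.41, 5.57 and 4.24 in shOSGEP, with its mean of 4.85 at the 95.9 percentile of protein-coding genes in shCtr. Trp53 had the lowest, 0.760, 0.723 and 0.341 in shCtr and 1.15, 0.462 and 0.295 in shOSGEP, with its shCtr mean of 0.608 at the 12.1 percentile. Aen (2.71 ± 0.70, SD, n = 3) and Cdkn1a (2.41 ± 0.70) came after Zmat3 in shCtr and overlapped each other. The annotated exons of Zmat3 sum to 11435 bases and its coding sequence to 870, and exons that these cells do not use would raise such a ratio, so it is best read within a gene. The fitted changes in translational efficiency ran from -0.38 for Cdkn1a to 0.11 for Aen on the log2 scale, and 3 of the 10 were above 0, against 49.6% of all genes.

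ANN codons, whose tRNAs carry t6A, made up from 11.4% (Bbc3) to 30.3% (Ccng1) of the codons of the 10 genes. Their median of 25.9% lay near that of all 21437 protein-coding genes with an annotated coding sequence, 27.7%. Bbc3 lay at the 0.397 percentile of these genes and Cdkn1a, at 19.5%, at the 8.02 percentile, while Ccng1 and Mdm2 (29.7%) lay at the 71.4 and 66.3 percentiles.

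Beyond the 10 genes, 20 regulators of p53 were followed, such as kinases, ligases and subunits of acetylases, of which 19 were tested. None had an unadjusted p under 0.05 in any measure in the fit without the replicate block. Of all genes, 1.78% had one in total RNA, 1.03% in RPF and 0.135% in translational efficiency. The median log2 change of the 19 was -0.10 in total RNA and 0.01 in RPF. Mdm4, which binds p53 with Mdm2 and blocks its activity, measured 52.2, 56.1 and 67.1 CPM in shCtr total RNA and 79.8, 61.6 and 82.2 CPM in shOSGEP total RNA. It was higher in 3 of 3 pairs with overlapping groups, with a fitted log2 change of 0.35 (SE 0.18, edgeR adjusted p = 0.975), close to that of Mdm2. Usp7, which removes ubiquitin from Mdm2 and p53, measured 86.9, 131 and 118 CPM in shCtr RPF and 42.1, 94.5 and 53.7 CPM in shOSGEP RPF. It was lower in 3 of 3 pairs with overlapping groups, with fitted log2 changes of -0.82 in RPF (SE 0.38, edgeR adjusted p = 0.9998) and -0.56 in translational efficiency (SE 0.44). With the replicate number as a block, Usp7 alone of the 19 had an unadjusted p under 0.05 in RPF, against 4.06% of all genes. Its edgeR p there was 0.00968 before and 0.817 after adjustment.

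KEOPS itself holds a kinase named for p53, encoded in the mouse by Trp53rka and Trp53rkb. Trp53rka had fitted log2 changes of -0.038 in total RNA (SE 0.20) and -0.19 in RPF (SE 0.31), and Trp53rkb of -0.15 (SE 0.21) and 0.78 (SE 0.63), with edgeR adjusted p-values of at least 0.975. Trp53rkb footprints rested on 20 to 214 counts per library, and 5.55 CPM in shOSGEP replicate 3 stood against 1.21 to 2.32 CPM in the other 5 libraries. The similar copies can share reads, so the split between them is uncertain. Wrap53, a neighbour of Trp53, had fitted log2 changes of -0.10 in total RNA (SE 0.19) and 0.17 in RPF (SE 0.30). Cdkn2a, which encodes the Mdm2 inhibitor p19ARF, had 0 counts in all 6 total RNA libraries, which allows up to 0.0388 to 0.062 CPM per library for counting error only, and 0 to 3 counts in the RPF libraries.

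Of 24 further targets in arrest, repair and metabolism, all tested, 0 had an unadjusted p under 0.05 in any measure in the fit without the replicate block. Of all genes, 1.78% had one in total RNA, 1.03% in RPF and 0.135% in translational efficiency. The medians of the 24 were 0.08 in total RNA and 0.16 in RPF. With the block, 5 of the 24 had an unadjusted p under 0.05 in total RNA, against 3.09% of all genes in either direction. All 5 had a change above 0 (Btg2, Plk2, Epha2, Dglucy and Zfp365). In RPF, 4 had one with a change above 0 (Btg2, Plk2, Sfn and Dglucy) and 1 with a change below 0 (Polh), against 4.06%. None of these passed at an adjusted p of 0.05, and they were named after their values were seen. Plk2, another stress-responsive kinase, had the smallest of these p-values, with fitted log2 changes of 1.33 (total RNA, SE 1.21) without the block and 1.16 (SE 0.14) with it. Plk3, a stress-activated kinase of this list, had a fitted log2 change in translational efficiency of -0.45 (SE 0.35, edgeR adjusted p = 0.99999). Of 14 further cell death targets, 9 were tested in total RNA, with a median of -0.21, and 6 in RPF, with a median of -0.28. In the fit without the block, Dram1, a lysosomal protein of autophagy, was the 1 cell death target with an unadjusted p under 0.05 in total RNA, against 1.78% of all genes. It measured 0.646, 0.252 and 0.558 CPM in shCtr total RNA and 14.9, 0.258 and 0.980 CPM in shOSGEP total RNA. This difference came from shOSGEP replicate 1, and the fitted log2 change of 3.46 (SE 1.42, edgeR adjusted p = 0.975) was 0.60 without replicate 1. With the block Dram1 had an unadjusted p of 0.144, and the death receptors Fas and Eda2r, named after their values were seen, had p-values of 0.044 and 0.0268 (edgeR adjusted p = 0.721). These were 2 of the 9 tested in total RNA, against 3.09% of all genes. Fas had 26, 5 and 3 counts in shCtr total RNA and 344, 8 and 11 in shOSGEP total RNA. Its difference thus came mostly from shOSGEP replicate 1, and it did not pass the filter in RPF.

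A list of 7 targets that ATF4 and CHOP, transcription factors of the integrated stress response, are also known to induce had higher medians than the 10 genes. Like the other lists, it was chosen with earlier results of these data known, so this contrast is not independent of them. The 5 tested were Gadd45a, Ddit4, Sesn2, Gdf15 and Bbc3, the last of which is also among the 10. All 5 had a fitted change above 0 in both assays, against 53.1% of all genes in total RNA and 54.9% in RPF. Their medians were 1.02 for total RNA and 1.09 for RPF. Gdf15, a secreted stress cytokine, measured 26.3, 15.7 and 26.6 CPM in shCtr total RNA and 61.2, 30.9 and 46.7 CPM in shOSGEP total RNA. The groups did not overlap, as in 7.08% of all genes. Its fitted log2 change in total RNA was 1.02 (SE 0.31, unadjusted p = 0.0143, edgeR adjusted p = 0.975). Gdf15 footprints had a fitted log2 change of 1.09 (SE 0.49, edgeR adjusted p = 0.9998) with overlapping groups. Sesn2, the paralogue of Sesn1, measured 48.2, 37.1 and 35.9 CPM in shCtr total RNA and 98.4, 49.6 and 52.3 CPM in shOSGEP total RNA, again without overlap. The fitted log2 change of Sesn2 was 0.72 (SE 0.30, unadjusted p = 0.0457, edgeR adjusted p = 0.975), against 0.04 for Sesn1. This change of Sesn2 was 0.47 without replicate 1 and 0.32 without the shOSGEP replicate 1 library alone. Its RPF groups did not overlap either, as in 5.07% of all genes. Sesn2 footprints measured 15.4, 10.9 and 13.5 CPM in shCtr RPF and 24.8, 15.8 and 23.0 CPM in shOSGEP RPF, with a fitted log2 change of 0.68 (SE 0.28, edgeR adjusted p = 0.9998). Gadd45a and Ddit4, named after their values were seen, had fitted log2 changes of 1.94 (SE 0.91) and 1.05 (SE 0.49) in total RNA, and of 0.90 (SE 0.30) and 0.55 (SE 0.25) without replicate 1. Without replicate 1 the 5 genes were all still above 0 in both assays, against 49.2% of all genes in each, with medians of 0.55 in total RNA and 0.62 in RPF. With the replicate number as a block, 4 of the 5 had an unadjusted p under 0.05 in total RNA and 5 of 5 in RPF, against 3.09% and 4.06% of all genes, and none passed at an adjusted p of 0.05, as 0.00689% of all genes (1 gene) did in total RNA. The other 2 of the list, Pmaip1 and Tnfrsf10b, had 0 to 5 and 0 to 12 counts per library.

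Cell cycle genes that p53 lowers through p21 and the DREAM complex had fitted changes below 0, 15 of 15 in both assays, against 46.9% of all genes in total RNA and 45.1% in RPF. Their median log2 change was -0.50 in total RNA and -0.69 in RPF. None had an unadjusted p under 0.05 in the fit without the replicate block, against 1.78% and 1.03% of all genes. With the block, 0 of the 15 had one in total RNA, against 3.09% of all genes. In RPF, 3 had one (the mitotic and S phase cyclins Ccnb1, Ccnb2 and Ccna2, named after their values were seen), against 4.06%. None passed at an adjusted p of 0.05. Most of the lowering of the 15 genes came from replicate 1. The medians by pair were -2.65, -0.14 and -0.08 for total RNA and -2.32, -0.45 and -0.21 for RPF. Without replicate 1, 15 of 15 were below 0 in total RNA and 12 in RPF (50.8% of all genes in each), with medians of -0.13 and -0.37. In that same pair, the total RNA log2 changes of the 10 genes were 1.09 for Bbc3, 0.60 for Mdm2, 0.36 for Cdkn1a, 0.11 for Sesn1, 0.10 for Ccng1 and 0.01 for Phlda3, those of Trp53, Zmat3, Aen and Bax were below 0, and the melanocyte markers were low as given above.

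**Figure D4:**
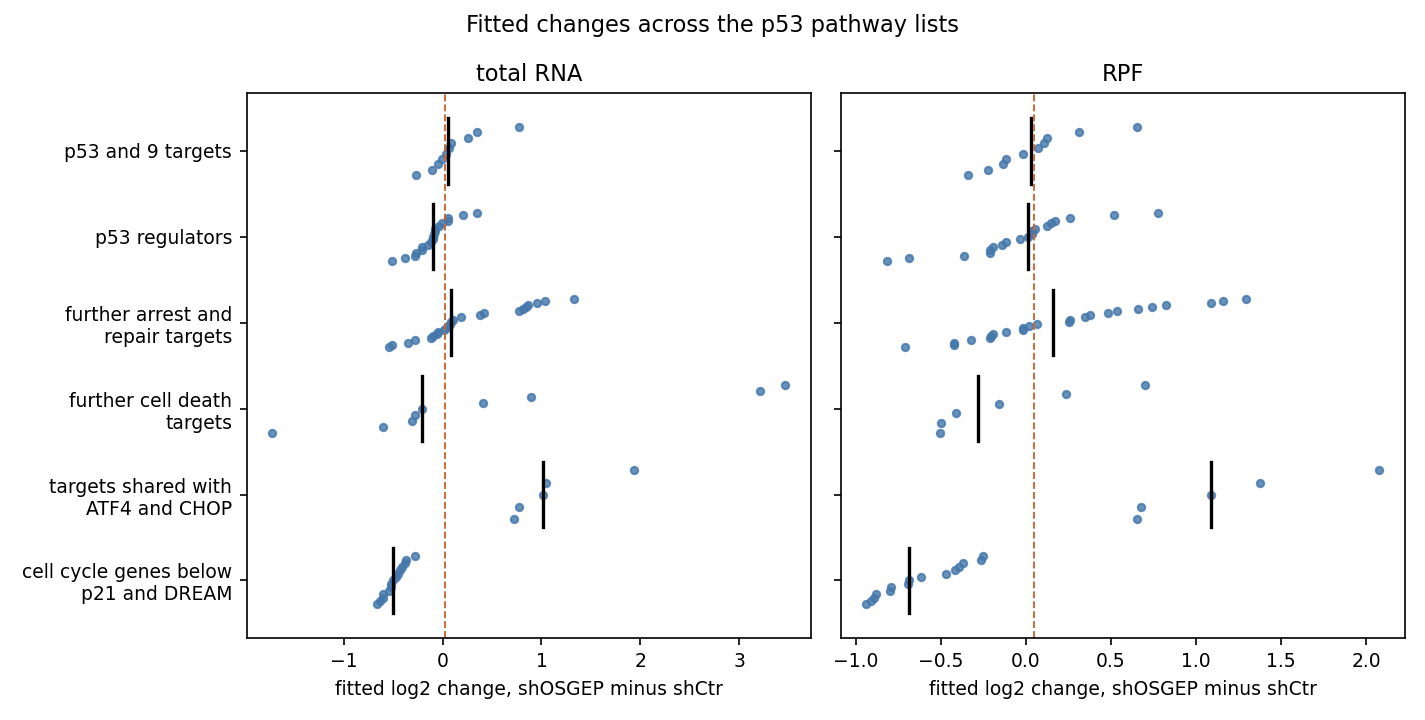
Fitted log2 change from shCtr to shOSGEP of each tested gene in 6 lists, in total RNA (left) and RPF (right), with black bars for list medians and a dashed line for the median of all genes tested. The 10 p53 genes are centred near the dashed line, at medians of 0.05 and 0.03, whereas the genes shared with ATF4 and CHOP lie to its right and the cell cycle genes to its left.

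How the 10 genes varied together over the 12 libraries was described with Pearson correlations of log2 CPM centred within each assay. RPF and total RNA libraries of the same hairpin and number were taken to come from the same cell sample, which the labels do not state. These 12 points also share depth and composition, so they carry no test. Over the 45 pairs of genes the median r was 0.15, with a range from -0.77 to 0.94. Mdm2 and Bbc3 formed the pair with the highest r, 0.94, and Sesn1 and Aen that with the lowest. To Cdkn1a, the nearest of the 10 were Phlda3 (r = 0.84), Bbc3 (0.80), Ccng1 (0.77) and Mdm2 (0.69), while Trp53 had an r of 0.09 and Zmat3 of -0.29. Among 6655 genes with a mean of at least 10 CPM in both assays, the 5 most like Cdkn1a were Mpnd (r = 0.93), Sema3b (0.93), Pacsin3 (0.92), Elmo2 (0.92) and Rab6b (0.92). They were picked as the highest of all these genes, so lying closer to Cdkn1a than any of the 10 follows largely from that choice. The share of genes closer to it than Phlda3 was not computed.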

How the data were processed

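The authors deposited 2 tables of whole-number read counts per Ensembl gene, without normalization, for RPF and total RNA. Per the labels, FastQC 0.11.9, Trim Galore 0.6.6, cutadapt and STAR were used, and GRCm38 and GRCm39 are both named. The study's methods describe STAR alignment of footprint reads to the coding transcriptome of GRCm38, and STAR with Salmon for an RNA sequencing experiment deposited separately. Which counter, annotation, strand setting and treatment of reads with several matches made these 2 tables is not given in the sources used here, so the build behind the counts is uncertain, and reads of overlapping or near-identical genes cannot be told apart. No column was left without a sample (0 unmapped). Symbols, coordinates and lengths came from GENCODE M21, which holds 55227 of the 55487 gene IDs (260 not), and promoters from RefSeq GRCm38.p6.

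Groups and replicate numbers came from the labels. Total RNA and RPF were each fitted with edgeR 4.0.16 under R 4.3.3, by its quasi-likelihood method (filterByExpr, TMM factors, Benjamini-Hochberg adjustment over all genes, threshold 0.05), with hairpin as the only term. Translational efficiency was the interaction of assay and hairpin over 12 libraries. Unless another setting is named, SEs and p-values come from these fits. They ignore the pairing by replicate number, so the spread between replicate numbers widens their SEs. Log2 CPM used a prior count of 2. Alternatives were RLE factors, no filter, DESeq2 1.42.0, the replicate number as a block, protein-coding genes only, leaving out libraries or replicates, a prior count of 0.5 for pairs and RLE factors for levels. The fits were also run on simulated counts with planted changes. These counts were drawn without pairing or an outlying sample, so the run checks the code and not the power in these data. After subtraction of group means, libraries with the same number correlated across genes (total RNA 0.52, 0.54 and 0.29, RPF 0.59, 0.51 and 0.66), so the numbers were taken to pair the samples. Replicates differed by more than sampling noise, with a chi-square per degree of freedom of at least 81.1. The study's methods state independent transductions for its experiments, while the labels do not say which culture each library came from, so p-values measure the spread between these samples, and intervals and limits for 0 counts cover counting error only.

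The 10 genes and all lists were chosen with earlier results of these data known. Genes outside the 10 were named by a rule: the 3 smallest unadjusted p-values per measure over the lists of regulators and targets, Mdm4, Cdkn2a, Trp53rka, Trp53rkb, Wrap53 and Osgep by name, and the 5 genes most like Cdkn1a. Further genes of the target and cell cycle lists were named after their values were seen, for an unadjusted edgeR p under 0.05 with the replicate block.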

Additional observations from a re-analysis of the deposited data

How the results depend on the processing

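None of the 10 genes passed an adjusted p of 0.05 under any alternative, and their lowest edgeR or DESeq2 adjusted p was 0.701 in total RNA, 0.815 in RPF and 0.9998 in translational efficiency. The number of genes called in total RNA moved from 0 to 8 with DESeq2 and to 1 with the replicate block, and in RPF from 0 to 229 without a filter on low counts and to 1 with DESeq2. Leaving out a library or replicate number gave 0 calls in each measure, and the median log2 change of the 10 genes then ran from -0.048 to 0.15 in total RNA, from -0.085 to 0.11 in RPF and from -0.16 to 0.05 in translational efficiency. The same alternatives turned the sign of single fitted changes, none of them called. In total RNA, the fitted log2 changes ran -0.23 to 9.7e-05 for Trp53, -0.037 to 0.45 for Cdkn1a, -0.18 to 0.35 for Ccng1, -0.059 to 0.23 for Phlda3 and -0.53 to 0.064 for Zmat3. They ran -0.052 to 0.13 for Sesn1, -0.17 to 0.11 for Aen, -0.14 to 0.094 for Bax, -0.19 to 0.14 for Trp53rka and -0.18 to 0.18 for Plk3. In RPF, the fitted log2 changes ran -0.66 to 0.17 for Trp53, -0.46 to 0.23 for Cdkn1a, -0.11 to 0.34 for Phlda3, -0.88 to 0.085 for Zmat3 and -0.17 to 0.16 for Sesn1. They ran -0.23 to 0.32 for Aen, -0.12 to 0.31 for Bax, -0.054 to 0.84 for Mdm4 and -0.098 to 1.09 for Trp53rkb. In translational efficiency, the fitted log2 changes ran -0.66 to 0.33 for Trp53, -0.15 to 0.090 for Mdm2, -0.68 to 0.38 for Bbc3, -0.16 to 0.24 for Phlda3 and -0.36 to 0.047 for Zmat3. They ran -0.16 to 0.078 for Sesn1, -0.15 to 0.31 for Aen, -0.19 to 0.37 for Bax, -0.33 to 0.55 for Mdm4 and -0.36 to 0.048 for Trp53rka. They ran -0.30 to 0.29 for Gdf15 and -0.27 to 0.22 for Sesn2. With the replicate block, which uses the pairing, the SE in total RNA was 0.14 for Mdm2 and 0.12 for Cdkn1a, with fitted log2 changes of 0.33 and 0.24, Bbc3 had an unadjusted p of 0.0251 in RPF, 1 of the 10 genes against 4.06% of all genes, and no call of the 10 changed. The sign of Gdf15 in translational efficiency turned to -0.0099 under this block, and that of Plk3 in total RNA turned to -0.0062 without a filter. The cause of these shifts was not tested. RLE factors, protein-coding genes only and the prior count of 0.5 turned no sign and moved no median or pair beyond the spread between replicates. Among the 10 genes, Bbc3 and Sesn1 had the fewest RPF counts, as few as 34 and 59 in a library.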
